A study of Mus musculus with 12 samples.

Results

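Cxcl9, Cxcl10 and Cxcl11 encode the secreted chemokines that bind the receptor CXCR3, and all 3 genes were followed here through 12 RNA-seq libraries of 4T1 cells. The rule takes the genes by name, as the known CXCR3 ligands of the mouse, and uses no measured value, though it was set with earlier results of these data known. They are 3 of the 16283 genes in the count table, and all 3 were among the 13601 genes that had enough counts to be tested. 4T1 is a mammary carcinoma line from BALB/c mice and serves as a model for triple-negative breast cancer. The series compared 4T1 cells with and without Cebpd, the gene of the transcription factor C/EBPδ, at rest and under interferon gamma (IFN-gamma).

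The 12 libraries formed 6 groups of 2. Control cells carried a guide that cuts Rosa26, where a break is taken to be harmless, and received vehicle in 1 group and IFN-gamma in the other. The other 4 groups carried a guide against Cebpd, either sgRNA1 or sgRNA2, each with vehicle or with IFN-gamma. IFN-gamma was given at 20 ng/ml for 24 hours. All cells, controls included, thus carried a CRISPR guide. The labels give neither the target sites of the guides nor whether each line was a clone or a pool. The labels do not tie the 2 libraries of a group to separate cultures, so the spread behind each p-value is that between these samples and may be technical.

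IFN-gamma binds a receptor of IFNGR1 and IFNGR2 chains, and the kinases JAK1 and JAK2 on it pass the signal to the nucleus. Genes with GAS elements are then switched on, among them Irf1, whose product binds related elements called ISREs, and NF-kB sites cooperate in the promoters of the CXCR3 ligands. CXCL9 (once called MIG), CXCL10 (IP-10) and CXCL11 (I-TAC) draw activated T cells and natural killer cells, which carry CXCR3, into inflamed tissue and tumours.

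The 3 genes lie side by side on chromosome 5 of the mouse assembly GRCm38 (mm10), all on the minus strand. Cxcl9 (ENSMUSG00000029417.9) spans bases 92321347 to 92328079, and its mRNA has 4 exons and 2889 bases. Cxcl10 (ENSMUSG00000034855.13) spans 92346638 to 92348889, and the transcript used for length has 4 exons and 1094 bases. Cxcl11 (ENSMUSG00000060183.6) spans 92359544 to 92365485, and its coding transcript has 5 exons and 1581 bases. GENCODE types the Cxcl11 gene as a polymorphic pseudogene, because the C57BL/6 strain of the reference carries a disrupted allele. 4T1 comes from BALB/c mice, and the allele in these cells was not examined here. A count of Cxcl11 is a count of RNA, and protein was not measured. On the plus strand, Art3 covers 133 bases of Cxcl10 exons, 5.91% of them, and the processed pseudogene Gm2673 covers 1582 of the 3794 exon bases of Cxcl11, 41.7%. The Gm2673 overlap lies outside the coding transcript of Cxcl11, which spans 92359547 to 92363277, as Gm2673 begins at 92363904. Strand is not marked by the library kit, and reads from such overlapping genes cannot be told apart. Art3 itself had 0 to 5 counts in each library, and Gm2673 was not analysed here.

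The promoters of Cxcl9 and Cxcl10 are shown because both genes went from nearly no reads to a high level with IFN-gamma. Cxcl11 rose too, but the promoter set used had no entry for it. The sequences are the 250 bases before the start site from RefSeq on GRCm38.p6, on the minus strand, at chr5:92328080-92328329 for Cxcl9 and chr5:92348890-92349139 for Cxcl10. They are written 5′ to 3′, and capitals mark matches to an ISRE (GAAANNGAAA) or to an NF-kB site (GGGNNNNNCC), with both strands searched and overlapping matches merged.
Cxcl9: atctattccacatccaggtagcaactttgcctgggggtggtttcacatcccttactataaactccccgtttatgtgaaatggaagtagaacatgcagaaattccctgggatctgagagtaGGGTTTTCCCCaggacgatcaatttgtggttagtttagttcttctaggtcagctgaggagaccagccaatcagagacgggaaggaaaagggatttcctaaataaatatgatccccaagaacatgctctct
Cxcl10: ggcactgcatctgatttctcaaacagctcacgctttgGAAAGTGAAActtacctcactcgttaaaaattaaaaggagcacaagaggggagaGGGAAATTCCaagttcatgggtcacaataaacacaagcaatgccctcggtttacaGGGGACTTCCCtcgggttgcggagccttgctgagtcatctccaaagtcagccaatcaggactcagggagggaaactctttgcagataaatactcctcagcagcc
The Cxcl10 window held the ISRE letters once, from -213 to -204 relative to the start site, as 978 of 32851 mouse promoters of the same length do (2.98%). It held the NF-kB letters in 2 places, from -159 to -150 and from -104 to -94. The Cxcl9 window held the NF-kB letters in 1 place, from -130 to -120, and these loose letters occur in 45.8% of promoters. The GAS letters TTCNNNGAA, found in 7.02% of promoters, were in neither window. The C/EBP half-palindrome letters TTNNGNAA, found in 36.8% of promoters, occurred in overlapping places from -38 to -30 of Cxcl9, and from -236 to -229 and -217 to -210 of Cxcl10, the last overlapping the ISRE letters. These matches describe letters and not bound sites.

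The libraries held 16912710 to 24784371 counts each, and levels are given as CPM, the count scaled to a common library size. Cebpd mRNA was not lower with the guides at rest. Its mean was 8.11 ± 1.39 CPM (SD, n = 2, as for every mean below) in control, 13.5 ± 0.172 with sgRNA1 and 9.54 ± 1.46 with sgRNA2. With IFN-gamma it was 51.3 ± 3.07, 45.8 ± 0.211 and 29.8 ± 0.591 CPM, and only sgRNA2 was called lower (-0.78, edgeR adjusted p = 3.03e-07, and -0.17, adjusted p = 0.0917, with sgRNA1). The mRNA level therefore does not check the labels, and the guides are named below as the labels name them. Of 8 markers of mammary carcinoma epithelium, 7 were in the table, with a summed level of 2614 to 4062 CPM that was lowest with the guides after IFN-gamma (values below). Of 17 leukocyte markers, 4 were in the table, and Ptprc, which encodes the pan-leukocyte antigen CD45, had 0 to 10 counts in each library. The fibroblast markers Col1a1 and Pdgfra, 2 of 7, summed to 14.1 to 32.2 CPM, and 3 of 4 endothelial markers summed to 0 to 1.27 CPM.

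Without IFN-gamma the CXCR3 ligands were nearly silent in 4T1. Cxcl9 had no count in either control library, 1 in each sgRNA1 library and 2 in each sgRNA2 library. Cxcl10, the most abundant of the 3 at rest, had 17 and 30 counts in control, against 20 and 16 for sgRNA1 and 40 and 35 for sgRNA2. Cxcl11 had 0 and 3 counts in control, against 0 and 5 for sgRNA1 and 17 and 18 for sgRNA2. In every case the sgRNA2 libraries were the highest and did not overlap the control. Of all genes tested, 45.2% had both sgRNA2 libraries above both controls at rest. The sgRNA1 libraries overlapped the control for Cxcl10 and Cxcl11. In bulk libraries such as these, fewer expressing cells and less RNA per cell cannot be told apart.

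**Figure D1:**
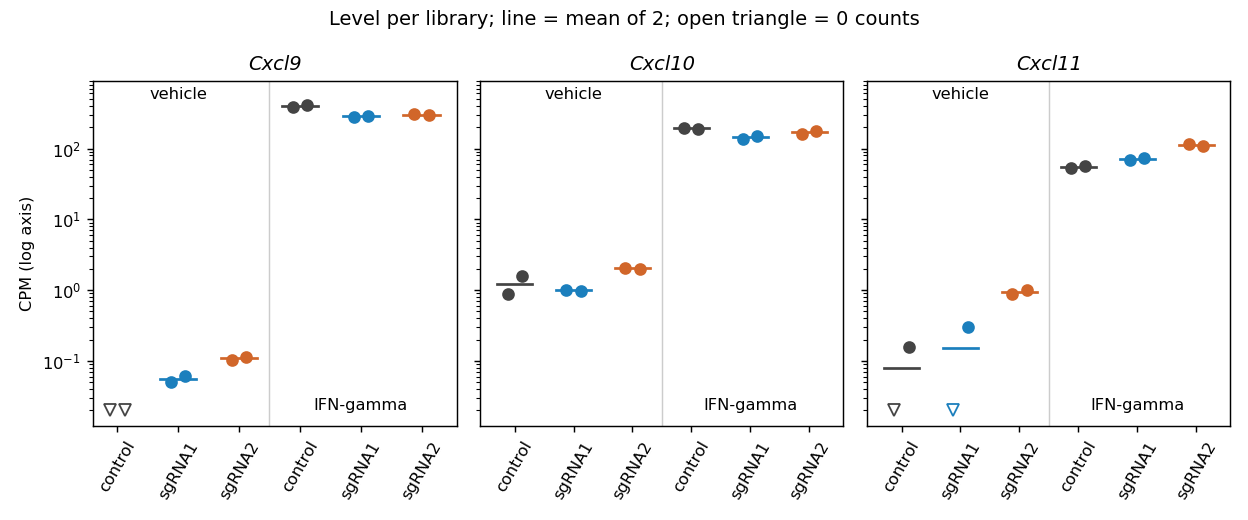
Level of Cxcl9, Cxcl10 and Cxcl11 in each of the 12 libraries, in CPM on a log axis, with the line at the mean of the 2 libraries of a group and an open triangle for 0 counts. All IFN-gamma libraries sit above 50 CPM and all vehicle libraries below 3 CPM, and with IFN-gamma the order of the lines is control first for Cxcl9 and Cxcl10 but last for Cxcl11.

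With sgRNA2 the resting level of all 3 was called higher than in control, against 38.3% of all genes tested that were called higher in that comparison. A gene is called here when its p from the quasi-likelihood test of edgeR, adjusted by Benjamini-Hochberg over all tested genes, is below 0.05. Cxcl11 changed by 3.50 ± 0.71 (log2 fold change ± SE, adjusted p = 0.000256). Over both libraries this was 35 counts against 3, a depth-corrected ratio of 12.1 with a 95% counting interval of 3.83 to 61.7. Cxcl10 changed by 0.73 ± 0.25 (adjusted p = 0.015), from 1.23 ± 0.491 to 2.03 ± 0.0624 CPM. That call was lost in 3 of 4 fits that left out a library: without the first control vehicle library, which had 17 counts of Cxcl10, the change was 0.37 (adjusted p = 0.279), and without the first or the second sgRNA2 library it was 0.66 (adjusted p = 0.0877) or 0.72 (adjusted p = 0.0537). For Cxcl9 the adjusted p was 0.0244, but it rests on 4 counts against 0, with each library at or under the floor of 3 counts used here, so no fold is given. The Cxcl9 call too was lost in 3 of 4 such fits.

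With sgRNA1 none of the 3 was called at rest, while 52.5% of all genes were called in one direction or the other. The adjusted p was 0.143 for Cxcl9, on 2 counts against 0. For Cxcl10 the log2 fold change was -0.31 ± 0.30 (adjusted p = 0.425), with a 95% interval of -1.04 to 0.43. For Cxcl11 the ratio of 5 counts to 3 was 1.76, with a counting interval of 0.342 to 11.3 (adjusted p = 0.597). These intervals are too wide to show that sgRNA1 and control were alike. Between the guides, sgRNA2 was higher than sgRNA1 for Cxcl10 by 1.04 ± 0.27 (adjusted p = 0.00275) and for Cxcl11 by 2.73 ± 0.64 (adjusted p = 0.00122), where 33.2% of all genes were called higher. Cxcl9 was not called between the guides (adjusted p = 0.493). The mean of both guides against control in vehicle was called for Cxcl11 (2.13 ± 0.88, adjusted p = 0.0397) and, on 6 counts in all, for Cxcl9 (adjusted p = 0.0451), but not for Cxcl10 (0.21 ± 0.24, adjusted p = 0.461), and 67.7% of all genes were called there. The Cxcl9 call was lost in all 6 fits that left out a library (adjusted p = 0.0525 to 0.153), with DESeq2 (0.0854), with no filter on low counts (0.0536), with only the groups compared (0.163) and with both guides as 1 group (0.0656). The Cxcl11 call was lost with only the groups compared (edgeR adjusted p = 0.112) and with both guides as 1 group (edgeR adjusted p = 0.121). Without the second sgRNA1 vehicle library, which held all 5 of that line's Cxcl11 counts, the Cxcl11 value turned to -0.13. Without the first control vehicle library it was 1.18.

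IFN-gamma raised all 3 genes in all 3 lines by 83.5-fold or more. In control, Cxcl9 reached 387 and 409.9 CPM, Cxcl10 reached 198 and 191 CPM, and Cxcl11 reached 52.7 and 56.3 CPM. Cxcl9 rose at least 2552-fold when each vehicle library is set to the floor of 3 counts. Cxcl10 rose by 7.31 ± 0.11 on the log2 scale (adjusted p = 9.91e-20), a ratio of 159. Cxcl11 went from 3 to 2184 counts, a ratio of 697 with a counting interval of 238 to 3383. With IFN-gamma, Cxcl9 stood between ranks 390 and 551 of all genes by CPM across the 6 libraries, beside 15376 and 15426 in the vehicle controls. In control cells 36.4% of all genes were called higher with IFN-gamma, in sgRNA1 cells 31.7% and in sgRNA2 cells 30.5%.

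With sgRNA1 the rise of Cxcl10 was 7.17 ± 0.12 (adjusted p = 7.97e-19), and with sgRNA2 it was 6.37 ± 0.10 (adjusted p = 6.66e-19). The ratios of counts were 145 and 83.5, and the counting interval of the last, 66.5 to 106, lies below the control ratio. For Cxcl11 the ratio was 517 (221 to 1594) with sgRNA1 and 118 (84.7 to 169.5) with sgRNA2. For Cxcl9 it was 5178 (1433 to 42762) and 2761 (1078 to 10134), on 2 and 4 vehicle counts. The sgRNA2 line thus had the smallest ratio for Cxcl10 and Cxcl11, whose resting counts were highest in that line.

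After IFN-gamma the ligands split. Cxcl9 and Cxcl10 were lower with either Cebpd guide than in control, and Cxcl11 was higher with either. Cxcl9 was at 387 and 409.9 CPM in control, against 279 and 289 for sgRNA1 and 305 and 295 for sgRNA2. All 4 guide libraries lay below both controls. With IFN-gamma, the libraries of 82.3% of all genes did not overlap between sgRNA1 and control, and those of 80% between sgRNA2 and control. The change was -0.49 ± 0.04 with sgRNA1 (adjusted p = 2.65e-08) and -0.41 ± 0.04 with sgRNA2 (adjusted p = 2.54e-07), or 1.4-fold and 1.33-fold lower. The guides did not differ by the test (0.08 ± 0.04, adjusted p = 0.16), with a 95% interval of the difference of -0.03 to 0.18.

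Cxcl10 was at 198 and 191 CPM in control, against 138 and 149 for sgRNA1 and 163 and 175 for sgRNA2. The groups did not overlap, and the order was control, sgRNA2, sgRNA1. The change was -0.44 ± 0.06 with sgRNA1 (adjusted p = 1.57e-06) and -0.20 ± 0.06 with sgRNA2 (adjusted p = 0.00358). The sgRNA2 value depends on scaling: with upper quartile scaling it was -0.10 (adjusted p = 0.128), and without the first sgRNA2 IFN-gamma library it was -0.12 (adjusted p = 0.139). Cxcl10 was higher with sgRNA2 than with sgRNA1 by 0.24 ± 0.06 (adjusted p = 0.00202).

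Cxcl11 was at 52.7 and 56.3 CPM in control, against 69.4 and 72.6 for sgRNA1 and 117 and 108 for sgRNA2. Control was the lowest group here and the highest for Cxcl9 and Cxcl10, sgRNA2 was the highest, and no groups overlapped. Cxcl11 was 1.3-fold higher than control with sgRNA1 (0.38 ± 0.08, adjusted p = 0.000656) and 2.06-fold higher with sgRNA2 (1.05 ± 0.08, adjusted p = 4.24e-09). The guides differed by 0.66 ± 0.08 (adjusted p = 2.55e-06), and 23.4% of all genes were called higher with sgRNA2 than with sgRNA1. Of all genes, 64.9% were called with sgRNA1 against control after IFN-gamma and 61.8% with sgRNA2, so a call in itself sets none of the 3 apart. The mean of both guides gave -0.45 ± 0.04 for Cxcl9 (adjusted p = 8.57e-09), -0.32 ± 0.05 for Cxcl10 (adjusted p = 9.24e-06) and 0.71 ± 0.07 for Cxcl11 (adjusted p = 1.12e-07), beside 65.9% of all genes. When the 4 libraries of both guides were treated as 1 group, so that the spread between guides counts as error, Cxcl9 kept its call (-0.45, adjusted p = 0.00361), and Cxcl10 (-0.32, adjusted p = 0.266) and Cxcl11 (0.75, adjusted p = 0.187) did not.

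**Figure D2:**
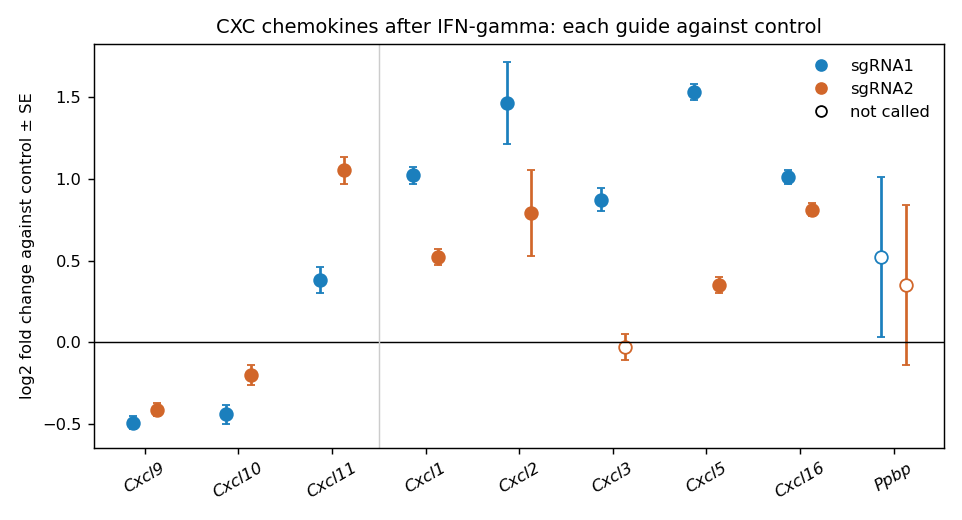
Log2 fold change ± SE of each CXC chemokine in the table with either Cebpd guide against control, all with IFN-gamma, and open points are not called. Cxcl9 and Cxcl10 lie below 0 with both guides, Cxcl11 lies above 0, and of the other CXC chemokines 5 are called higher with sgRNA1 and 4 with sgRNA2.

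The summed level of the 3 ligands with IFN-gamma was 638 and 658 CPM in control, against 487 and 511 for sgRNA1 and 585 and 578 for sgRNA2. The make-up of that sum shifted towards Cxcl11. Ratios within a library do not depend on library size, and levels of different genes are compared here per kilobase of transcript. Per length, Cxcl10 was the most abundant of the 3 in every IFN-gamma group, at 178 ± 4.24 CPM per kb in control, followed by Cxcl9 at 138 ± 5.66 and Cxcl11 at 34.5 ± 1.63. The ratio of Cxcl11 to Cxcl10 per length was 0.184 and 0.203 in control, against 0.347 and 0.338 for sgRNA1 and 0.498 and 0.428 for sgRNA2, with no overlap between groups. The ratio of Cxcl9 to Cxcl10 was 0.741 and 0.811 in control, against 0.766 and 0.736 for sgRNA1 and 0.708 and 0.64 for sgRNA2, where control and sgRNA1 overlapped. Cxcl11 made up 9.84 ± 0.375% of the 3 per length in control, 16.4 ± 0.0707% with sgRNA1 and 21.6 ± 1.34% with sgRNA2.

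**Figure D3:**
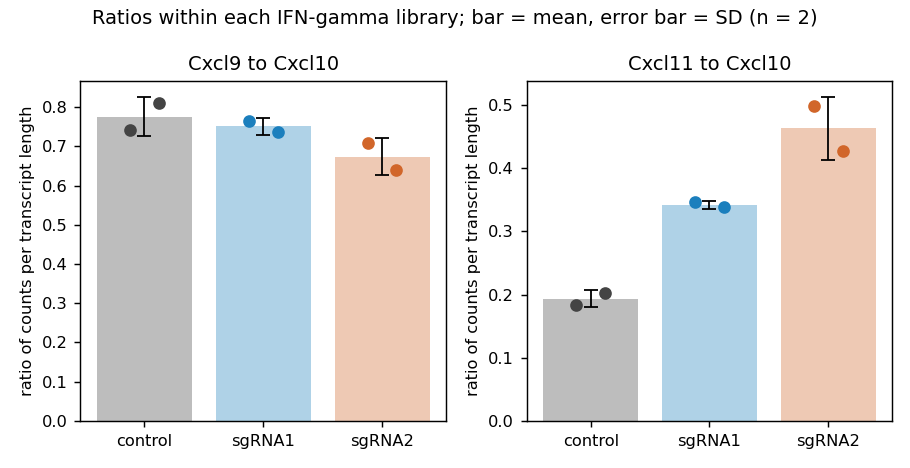
Ratio of counts per transcript length within each IFN-gamma library, with bars at the mean and error bars at the SD of 2 libraries, for Cxcl9 to Cxcl10 and for Cxcl11 to Cxcl10. The Cxcl11 to Cxcl10 ratio has means of 0.194 in control, 0.343 with sgRNA1 and 0.463 with sgRNA2, while the Cxcl9 to Cxcl10 ratio stays between 0.674 and 0.776.

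The difference between the guide effect with and without IFN-gamma was tested as an interaction. With sgRNA2 it was below 0 for all 3 genes, where 34.7% of all genes were called in that direction. It was -0.93 ± 0.26 for Cxcl10 (adjusted p = 0.00397) and -2.45 ± 0.77 for Cxcl11 (adjusted p = 0.00943), and without the first control vehicle library it was -0.57 (adjusted p = 0.0938) and -1.50 (adjusted p = 0.115). For Cxcl9 the adjusted p was 0.0145, on vehicle counts of 0 and 4, and it was 0.0643 and 0.0625 without the first and without the second control vehicle library. With sgRNA1 none was called (adjusted p = 0.0941 for Cxcl9, 0.745 for Cxcl10 and 0.787 for Cxcl11), beside 55.1% of all genes.

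Some markers of leukocytes, which also make these chemokines, and of fibroblasts moved with some of these results. The summed level of the 4 leukocyte markers in the table was 4.86 to 6.19 CPM in control vehicle libraries, 7.12 to 8.56 with sgRNA1 and 33.2 to 35.2 with sgRNA2. With IFN-gamma it was 35.8 to 35.9 CPM in control, 13.2 to 13.9 with sgRNA1 and 30.5 to 31.5 with sgRNA2. Most of it was Cd68, a lysosomal protein gene, at 25.4 ± 0.202 CPM in sgRNA2 vehicle libraries and 35.2 ± 0.183 in control with IFN-gamma, and Csf1r went from 0.754 ± 0.0288 CPM in control vehicle libraries to 8.27 ± 1.06 with sgRNA2. Csf1r did not follow Cd68 with IFN-gamma, where it was at 0.469 ± 0.226 CPM in control, 1.4 ± 0.0783 with sgRNA1 and 1.14 ± 0.392 with sgRNA2. Over both libraries of a group, Ptprc had 13, 6 and 14 counts with vehicle in control, sgRNA1 and sgRNA2. With IFN-gamma it had 7, 3 and 0. Itgam had at most 4 counts over both libraries of a group. None of the 4 markers was at 0 in all libraries. Both fibroblast markers that passed the filter, of 7 listed, were also called higher with sgRNA2 at rest, where 38.3% of all genes were called higher. Col1a1 went from 0.183 ± 0.112 CPM, on 7 counts over both control libraries, to 3.93 ± 0.0586 CPM. Pdgfra went from 14.4 ± 0.915 to 28.2 ± 0.236 CPM. Their sum was 14.1 to 15.2 CPM in control, 18.8 to 20.6 with sgRNA1 and 32 to 32.2 with sgRNA2. After IFN-gamma that sum was 24.7 to 25.1, 27.4 to 30.7 and 22.3 to 26.4 CPM.

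Epithelial markers and the mitochondrial share moved with the lower Cxcl9 and Cxcl10 after IFN-gamma. The 7 epithelial markers summed to 4014 to 4062 CPM in control, 2614 to 2624 with sgRNA1 and 3083 to 3305 with sgRNA2. Of the 7, 6 were called lower with each guide, Krt18 and Epcam among them, where 33.3% of all genes were called lower with sgRNA1 and 31.6% with sgRNA2. Krt14, a basal keratin gene, was the exception, at 4.53 ± 0.227 CPM in control, 11.3 ± 0.281 with sgRNA1 and 10.5 ± 0.707 with sgRNA2. The share of counts from genes of the mitochondrial genome was 1.03% and 1.18% in the control libraries. It was 0.544% and 0.54% for sgRNA1, and 0.628% and 0.533% for sgRNA2. The part of these markers and shares in the ligand results was not tested.

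Around the cluster, IFN-gamma moved the CXCR3 ligands far more than their neighbours. Of 9 protein-coding genes within 200 kb, 8 were in the table and 6 were tested. In control cells, 2 rose with IFN-gamma, namely Naaa, which encodes a lysosomal amidase (0.70 ± 0.18, adjusted p = 0.00204), and Scarb2, which encodes a lysosomal membrane protein (0.60 ± 0.08, adjusted p = 1.76e-06). Sdad1, the gene next to Cxcl9, fell by 1.14 on the log2 scale (adjusted p = 4.88e-12), and Nup54, a nuclear pore gene, fell by 0.24 (adjusted p = 0.00815). Uso1 and U90926 were not called. Of all genes, 36.4% were called higher and 34.1% lower in that comparison. The median of the 6 was -0.08, beside 0.01 for all genes. Cxcl10 lies within the introns and exons of Art3 on the other strand, and Art3 had at most 5 counts in any library with IFN-gamma and at most 1 without.

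**Figure D4:**
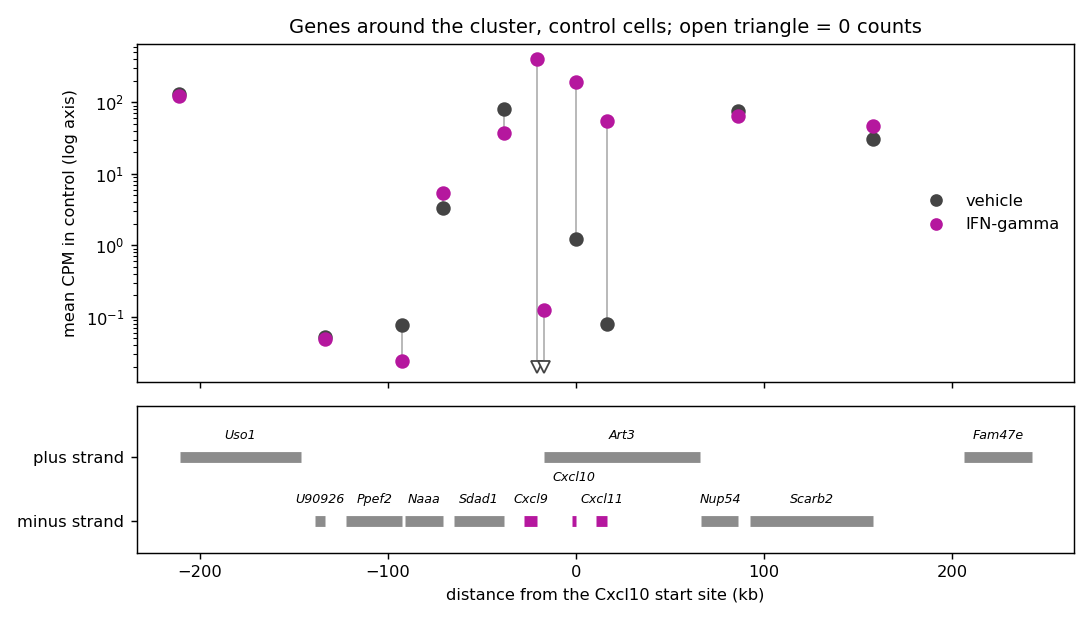
Mean CPM (log axis) in control libraries with vehicle or IFN-gamma for the genes around the CXCR3 ligand cluster, placed by the distance of their start site from that of Cxcl10 in kb, above a map of the gene bodies by strand, and open triangles are 0 counts. The vertical lines of Cxcl9, Cxcl10 and Cxcl11 span more than 2 orders of magnitude, while those of the neighbours with more than 1 CPM stay short.

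With the guides after IFN-gamma, the neighbours moved in both directions. With sgRNA1, 3 of the 6 were called higher and 2 lower, namely Scarb2 (-0.27 ± 0.08, adjusted p = 0.00451) and Uso1 (-0.12 ± 0.05, adjusted p = 0.0368). Of all genes, 31.6% were called higher and 33.3% lower there. With sgRNA2 3 were called higher and none lower, beside 30.2% higher and 31.6% lower of all genes. The mean of both guides was higher than control for Naaa (0.79 ± 0.14, adjusted p = 6.65e-05), Sdad1 (0.59 ± 0.05, adjusted p = 1.43e-08) and U90926, which had 2 counts over both control libraries, 148 with sgRNA1 and 24 with sgRNA2, where 32.5% of all genes were called higher. With both guides as 1 group, the call of Sdad1 was lost (0.62, adjusted p = 0.134). Uso1, Nup54 and Scarb2 were not called for the mean. Sdad1 went the other way at rest, where it fell with the guides by 1.03 on the log2 scale (adjusted p = 3.9e-12).

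The receptor itself was expressed at a low level. Cxcr3 stood at 8.16 ± 1.24 CPM in control vehicle libraries and 8.84 ± 1.45 with IFN-gamma, and the difference was not called (0.12, adjusted p = 0.51). It was lower with sgRNA2 at rest (3.46 ± 0.163 CPM, -1.24 ± 0.17, adjusted p = 3.87e-06), and with both guides after IFN-gamma (-0.52 with sgRNA1, adjusted p = 0.00652, and -0.80 with sgRNA2, adjusted p = 0.000243). Ackr3 encodes an atypical receptor that takes up CXCL11 and CXCL12. In control it fell with IFN-gamma by 0.93 on the log2 scale (adjusted p = 1.11e-10), from 74.5 ± 2.71 to 39.2 ± 2.68 CPM. After IFN-gamma Ackr3 was higher with sgRNA1 (84.5 ± 2.38 CPM, 1.11 ± 0.06, adjusted p = 1.65e-11) and with sgRNA2 (53.2 ± 0.858 CPM, 0.44, adjusted p = 4.84e-06). Dpp4, which encodes the peptidase that trims these chemokines, and Pf4 were not in the count table.

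The signalling genes upstream of the chemokines rose with IFN-gamma and were mostly lower with the guides after it. The list held 22 genes for the receptor chains, JAK and STAT proteins, interferon regulatory factors, NF-kB and their inhibitors, and all 22 were tested. In control cells 20 rose with IFN-gamma, 1 fell (Irf3, by 0.38) and 1 (Ptpn2) was not called. There 36.4% of all genes were called higher and 34.1% lower, and the median of the list was 1.86 against 0.01 for all genes. The largest rises in this list were those of Irf7, an interferon regulatory factor (6.31 ± 0.11, adjusted p = 1.06e-18), Usp18, an inhibitor of interferon signalling (5.61 ± 0.14), Irf1 (4.98 ± 0.06), Irf8 (4.52 ± 0.06), Stat2 (4.02 ± 0.08) and Irf9 (3.89 ± 0.09). After IFN-gamma the mean of both guides was lower than control for 16 of 22, higher for 3 and not called for 3, beside 33.4% lower and 32.5% higher of all genes, with a median of -0.45 against 0.02. Jak2 was at 174 ± 1.8 CPM in control, 84.5 ± 2.08 with sgRNA1 and 92.8 ± 0.0772 with sgRNA2, a change of -0.97 ± 0.04 (adjusted p = 1.21e-12). Irf2, Stat3 and Socs1, a feedback inhibitor, each changed by -0.81, Ifngr2 by -0.67 ± 0.06 and Nfkbia, the NF-kB inhibitor gene, by -0.63 ± 0.04. For Socs1 the adjusted p was 0.0762 with both guides as 1 group. Irf7 was 1 of the 3 that were higher (0.33 ± 0.05, adjusted p = 7.38e-06).

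At rest more of this list was higher than lower with the guides. The mean of both guides was higher than control for 14 of 22, lower for 5 and not called for 3, beside 34% higher and 33.7% lower of all genes, with a median of 0.29 against 0.03. Irf7 was higher by 2.37 ± 0.18, Irf1 by 1.68 ± 0.06, Usp18 by 1.53 ± 0.22, Irf9 by 1.03 ± 0.10 and Ifngr1 by 0.83 ± 0.06, and Socs1 was lower, by -1.37 ± 0.12. Irf1 was at 24.6 ± 2.83 CPM in control, 49.2 ± 0.631 with sgRNA1 and 126 ± 0.797 with sgRNA2. With sgRNA2 alone 15 were higher and 5 lower at rest, beside 38.3% and 35% of all genes, and with upper quartile scaling 17 and 4.

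**Figure D5:**
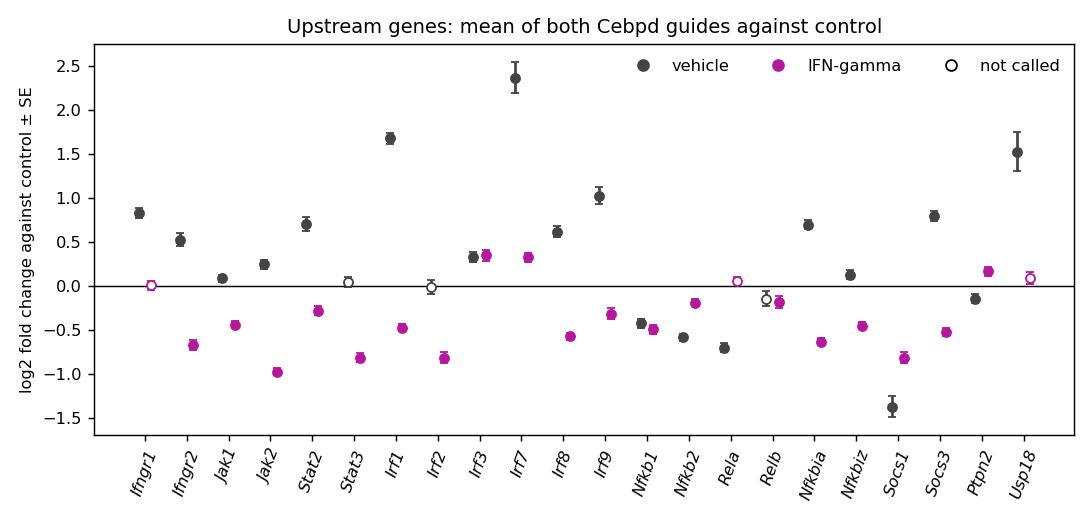
Log2 fold change ± SE of the mean of both Cebpd guides against control, with vehicle or with IFN-gamma, for the 22 genes upstream of the chemokines, and open points are not called. The vehicle points of Irf1, Irf7, Irf9 and Usp18 lie above 1, and Jak2 is the lowest of the IFN-gamma points.

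Of 12 other CXC chemokines, 6 were in the table and tested. After IFN-gamma 5 of the 6 were called higher with the mean of both guides, the direction of Cxcl11 and not of Cxcl9 and Cxcl10, beside 32.5% of all genes. These chemokines of the neutrophil-attracting type, and Cxcl16, the ligand of CXCR6, had a median change of 0.84, against 0.02 for all genes. Cxcl2 was higher by 1.12 ± 0.23, Cxcl5 by 0.94 ± 0.04, Cxcl16 by 0.91 ± 0.04, Cxcl1 by 0.77 ± 0.04 and Cxcl3 by 0.42. With both guides as 1 group, Cxcl5 (1.06, adjusted p = 0.0523) and Cxcl3 (0.49, adjusted p = 0.255) were not called. Cxcl3 changed by 0.87 ± 0.07 with sgRNA1, and the sgRNA2 value was -0.03 (adjusted p = 0.782). In control cells IFN-gamma raised 5 of the 6, beside 36.4% of all genes, with a median of 0.67, far less than it raised the CXCR3 ligands. The smallest of these rises, that of Cxcl3 (0.21), was not called with upper quartile scaling (edgeR adjusted p = 0.0959). It was not called with DESeq2 (adjusted p = 0.0738) or with only the groups compared (edgeR adjusted p = 0.055) either.

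Of 13 other lymphocyte attractants, 6 were in the table. In control cells Ccl5 rose by 4.42 ± 0.10 with IFN-gamma, Cx3cl1, a membrane-bound chemokine, by 3.22 ± 0.06, and Ccl17 by 2.78, and Ccl25 fell by 1.29. After IFN-gamma Cx3cl1 was lower with both guides, going from 345 ± 1.42 CPM in control to 103 ± 8.72 with sgRNA1 and 115 ± 4.1 with sgRNA2 (-1.66 ± 0.04, adjusted p = 2.1e-15). Ccl5 went in opposite directions with the 2 guides, by -0.36 ± 0.06 with sgRNA1 (adjusted p = 5.5e-05) and by 0.28 ± 0.06 with sgRNA2 (adjusted p = 0.000532). Ccl4, which had 0 counts in control with IFN-gamma, had 48 over both sgRNA1 libraries and 19 over both sgRNA2 libraries.

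The genes whose profile over the 12 libraries was nearest to each ligand were interferon-inducible. Likeness was measured as the root mean square distance between log2 CPM profiles, each centred on its own mean. A prior count of 2 was added before the log. Nearest to Cxcl9 were Iigp1, an immunity-related GTPase (0.58), Tgtp1 (1.18), Gbp10 (1.20), Mpeg1 (1.40) and Gbp4 (1.52). Nearest to Cxcl10 were H2-Aa, a class II histocompatibility gene (0.44), Irgm2 (0.45), Ubd (0.47), Ifi205 (0.53) and Gbp3 (0.54). Over both libraries of a vehicle group H2-Aa had at most 1 count and Ubd at most 2, so their distances depend on the prior count. Nearest to Cxcl11 were the GTPase genes Gbp6 (0.73), Gbp3 (0.74), Gbp2 (0.81), Igtp (0.83) and Gbp7 (0.86). Between the ligands, the distance was 2.13 for Cxcl9 and Cxcl10, 1.83 for Cxcl9 and Cxcl11 and 0.96 for Cxcl10 and Cxcl11. By distance these pairs ranked 22, 16 and 29 among all tested genes. The genes named above were picked as the nearest, so any gene outside those lists lies further off. The larger distances between ligands therefore do not show that the ligands are unlike each other. All of these profiles are dominated by the rise with IFN-gamma. Reads of the Gbp genes and of Tgtp1 can be shared with near-identical copies, so their values are uncertain to that extent.

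The likeness of Cxcl11 to its neighbours in profile did not hold for the guide effect after IFN-gamma. All 5 genes nearest to Cxcl11 were then called lower than control with both guides, whereas Cxcl11 was higher with both. Gbp6, for example, changed by -1.35 ± 0.10 with sgRNA1 and -0.69 ± 0.09 with sgRNA2. At rest all 5 were called higher with sgRNA2, by 2.02 (Igtp) to 3.69 (Gbp2), as Cxcl11 was (3.50), where 38.3% of all genes were called higher. With sgRNA1 at rest Gbp3, Gbp2, Igtp and Gbp7 were called higher, and Gbp6 and Cxcl11 were not called. Among 74 genes that IFN-gamma raised at least by 5 on the log2 scale in control, to at least 10 CPM, 42 were called lower with both guides (56.8%) and 8 were called higher with both (10.8%). These limits were chosen after the values had been seen. They use the same control IFN-gamma libraries that the guides are compared with, which favours lower calls. Of all genes, 33.3% were called lower and 31.6% higher with sgRNA1, and 31.6% lower and 30.2% higher with sgRNA2. The share called with both guides was not computed over all genes, so the counts do not set these genes apart. Cxcl11 was 1 of the 8, with Acod1, Cmpk2, Irf7, Mx2, Rsad2, Serpina3f and Serpina3g. Rsad2, which encodes the antiviral protein viperin, was nearest to Cxcl11 in size, at 0.45 with sgRNA1 and 1.09 with sgRNA2. Cxcl9 and Cxcl10 were among the 42.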

How the data were processed

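The values deposited by the authors are raw read counts, 1 whole number per gene and library. STAR 2.4.0, HTSeq, DESeq2 1.10 and the build mm10 are named without roles in the submitters' processing notes. No source used here gives the annotation or the strand setting of the counting. The labels' protocols name an Illumina TruSeq RNA kit. Groups came from the titles and treatment entries. Genes were kept with edgeR's filterByExpr (minimum count 10, minimum total 15), and 2682 genes were not tested. edgeR 4.0.16 (R 4.3.3) fitted all 12 libraries in a quasi-likelihood model of the 6 groups, with TMM scaling and Benjamini-Hochberg adjustment over all tested genes. The SE restates the fold change and its F statistic. Residual degrees of freedom were 6. No pair of libraries agreed within sampling noise (chi-square per degree of freedom 2.77 to 7.28). Counting intervals are exact and conditional, and they and the floors cover counting error only. The fit was tested on simulated data.

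Ratios per length used the protein-coding transcript with the most exons in GENCODE vM21. Promoters came from RefSeq on GRCm38.p6, the same assembly as mm10, and 2 of 3 members matched. Named genes were the 3 members, Cebpd, receptor and neighbour genes, up to 6 called members of each other list with the largest change, and the 5 nearest profiles. Members and lists were chosen with earlier results of these data known. The result for 1 listed gene is not reported here. Alternatives were upper quartile scaling, DESeq2 1.42.0, other filters, fits of only the groups compared, both guides as 1 group, a replicate block, no length division, and leaving out each library.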

Additional observations from a re-analysis of the deposited data

Results flagged for a closer look

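The effect of sgRNA2 differed between IFN-gamma and vehicle for all 3 ligands in a test of the difference over all 12 libraries, and each of these calls depends on a control vehicle library. The fitted differences were -4.59 for Cxcl9, -0.93 for Cxcl10 and -2.45 for Cxcl11 on the log2 scale. The Cxcl9 value rests on 0 and 4 vehicle counts and depends on the fit's treatment of zeros, so it is not a bound. For Cxcl10, sgRNA2 was above control at rest and below it after IFN-gamma. For Cxcl11 it was above control in both, by a larger fold at rest. Without the first control vehicle library the values for Cxcl10 and Cxcl11 were -0.57 (edgeR adjusted p = 0.0938) and -1.50 (adjusted p = 0.115). The Cxcl9 call was lost without either control vehicle library (adjusted p = 0.0643 and 0.0625).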

How the results depend on the processing

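For the 3 ligands, 486 values were recomputed under the alternatives over 42 results. Of these, 33 lost the call, 5 gained it and 1, called in the main fit, changed sign. The other 447 kept their side of the threshold, and a change of sign between uncalled values was counted among them. For example, Cxcl11 with sgRNA1 in vehicle ran from -3.76 to 4.51 without 1 library. All 90 values of IFN-gamma against vehicle kept their direction and their call. The depth limits the vehicle results, which rest on 0 to 40 counts per library.

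With sgRNA2 in vehicle, fitting only the groups compared gave 4.10 for Cxcl9 (edgeR adjusted p = 0.138) and 0.69 for Cxcl10 (0.112), and leaving out 1 library gave 4.10 to 4.21 and 0.37 to 1.20. For the mean of both guides in vehicle, Cxcl9 was 3.0 with DESeq2, 3.72 with no filter, 3.64 with only the groups compared, 3.80 with both guides as 1 group and 3.69 to 3.79 without 1 library. The call was lost in each of these, with adjusted p from 0.0525 to 0.163, and the values depend on the handling of 0 counts. Cxcl11 was 2.11 with only the groups compared (edgeR adjusted p = 0.112) and 2.71 with both guides as 1 group (edgeR adjusted p = 0.121), and its call was lost in both. Without 1 library it was -0.13 to 5.88, the lowest without the second sgRNA1 vehicle library. With sgRNA2 after IFN-gamma, Cxcl10 was -0.10 with upper quartile scaling and -0.26 to -0.12 without 1 library. With both guides as 1 group after IFN-gamma, Cxcl10 was -0.32 and Cxcl11 was 0.75. Between the guides after IFN-gamma, Cxcl9 was 0.11 with upper quartile scaling (adjusted p = 0.0432).

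The sgRNA2 interaction without 1 library was -4.63 to -4.48 for Cxcl9, -1.41 to -0.57 for Cxcl10 and -6.20 to -1.50 for Cxcl11. The interaction of the mean of both guides was -4.18 for Cxcl9, -0.53 for Cxcl10 (adjusted p = 0.0658) and -1.42 for Cxcl11 (adjusted p = 0.18). It was -4.25 for Cxcl9 with both guides as 1 group, -0.58 for Cxcl10 with upper quartile scaling, and without 1 library -4.24 to -4.10, -1.01 to -0.17 and -5.16 to 0.84. With both guides as 1 group, 4387 genes were called in vehicle against 9207, 4361 against 8959 after IFN-gamma and 2663 against 8688 for the interaction, where the spread between guides counts as error. Without division by length the ratio of Cxcl9 to Cxcl10 was 2.05, 1.98 and 1.78 in control, sgRNA1 and sgRNA2, and that of Cxcl11 to Cxcl10 was 0.28, 0.495 and 0.669.

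The median change over all tested genes shifted under upper quartile scaling by 0.104 with sgRNA1 in vehicle, 0.167 with sgRNA2, 0.135 with their mean, 0.105 with sgRNA2 after IFN-gamma and -0.121 for IFN-gamma in sgRNA2. The share of calls that were higher went from 48.8% to 62.8%, 52.3% to 62.5%, 50.2% to 62.1% and, for IFN-gamma in sgRNA2, 51.1% to 38.1%.

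The replicate numbers did not pair the samples, as the correlations of same-numbered deviations were -0.14 to 0.06 over 15 pairs of groups. The replicate block changed none of the 42 member calls, and IFN-gamma against vehicle in control had 9539 calls with the block against 9581.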
